A study of Mus musculus with 18 samples.

Results

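Serpinb2 and 4 genes of plasminogen activation, Plau, Plaur, Plat and Serpine2, were followed in mouse dermal fibroblasts in which the histone variant macroH2A2 was switched on. They are 5 of 48440 genes in the count files, and all 5 were among the 13785 that passed the filter on low counts. Serpinb2 was selected on its RNA level at 6h against 0h, the contrast in which it stood out. The other 4 genes were listed with it for their roles in the same protease system, with results of these data known. For the 5 genes, values of that contrast are therefore given as a description, without p-values. The 24h against 6h contrast uses the same 6h libraries, so its values for these genes are not independent of that choice. They are given in the same way, without p-values.

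Plasminogen is a circulating zymogen that is cleaved to plasmin, a protease that dissolves fibrin and digests extracellular matrix. The cleavage is made by urokinase, the product of Plau, and by tissue plasminogen activator, the product of Plat. Plaur encodes the receptor that holds urokinase at the cell surface. Serpinb2 encodes plasminogen activator inhibitor type 2, a clade B serpin that inhibits both activators and is found largely inside cells. Serpine2 encodes protease nexin 1, a secreted serpin that inhibits thrombin and urokinase. In fibroblasts these genes are known to respond to growth factors, inflammatory signals and wounding.

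The cells were a male 129/S6 line of newborn dermal fibroblasts immortalized with SV40, a double knockout for macroH2A1/2 in which doxycycline induces a macroH2A2-GFP transgene. Every macroH2A2 and RNA library came from this line, the 0h libraries included, so no library of the RNA set has native macroH2A. RNA was measured in 3 libraries each without doxycycline (0h) and after 6h and 24h of doxycycline at 0.5 ug/ml. The design text calls the RNA libraries biological triplicates. Native ChIP-seq of macroH2A2-GFP was made without doxycycline (0h) and after 6h, 24h and 5d of it, with a single library per time. Further single libraries had 24h of doxycycline with 0.5 uM flavopiridol, a CDK9 inhibitor, in the last 18 hours, or 6h or 24h of doxycycline after 10 days of 5 uM GSK126, an Ezh2 inhibitor. H2A.Z, another H2A variant, was profiled in 1 library of primary dermal fibroblasts of newborn wild-type female mice, which differ from the line in sex, genotype and immortalization. Doxycycline and the transgene were always given together in these libraries, so their parts in a difference from 0h cannot be told apart.

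The RNA libraries held 29338093 to 37793178 counts over genes. H2afy2, which encodes macroH2A2, had 10.5, 25.3 and 9.61 CPM (counts scaled to library size, TMM-normalised) at 0h, 822.7, 833.1 and 804.8 CPM at 6h and 1741, 1713 and 1727 CPM at 24h. The summed CPM of 10 fibroblast markers was 14461 to 14649 at 0h, 14396 to 14602 at 6h and 13331 to 14149 at 24h. Within this sum single markers moved in both directions. At an edgeR adjusted p under 0.05, 3 of the 10 rose and 5 fell at 6h against 0h. Thy1 went from 244.4 to 307.5 CPM and Pdgfrb from 168.2 to 121.2 CPM. At 24h against 0h 1 rose and 5 fell. Serpinb2 is also known from macrophages and keratinocytes. The macrophage markers Adgre1 and Lyz2 and the keratinocyte markers Krt5, Krt1 and Ivl had 0 counts in all 9 libraries, and the sum of 8 macrophage markers was 6.85 to 7.72 CPM at 0h, 6.79 to 7.67 CPM at 6h and 7.29 to 8.71 CPM at 24h. The sum of 8 keratinocyte markers was 6.99 to 7.18 CPM at 0h, 7.67 to 9.09 CPM at 6h and 7.39 to 8.64 CPM at 24h. Endothelial markers summed to 24.6 to 27.1 CPM at 0h, 30.9 to 31.8 CPM at 6h and 23.6 to 26.6 CPM at 24h, and markers of other skin and muscle cells to 9.72 to 10.4, 16.2 to 17.7 and 8.22 to 8.79 CPM at the same times. Single markers of these lists rose at 6h against 0h: Epcam of the keratinocyte list (2.57 CPM at 6h, 1.46 CPM at 0h; edgeR adjusted p = 0.00035), Mrc1 of the macrophage list, named after its values were seen (1.05 CPM at 6h, 0.394 CPM at 0h; edgeR adjusted p = 0.00021), Flt1 of the endothelial list (29.9 CPM at 6h, 24.9 CPM at 0h; edgeR adjusted p = 9.9e-05) and Acta1 of the last list (11.8 CPM at 6h, 4.77 CPM at 0h; edgeR adjusted p = 2.6e-12). Whether cells that these markers stand for have a part in the results below was not tested.

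The promoters of Serpinb2 and Plaur are shown because both genes had more RNA at 6h and because the called regions below meet their start sites in different ways. Each is the RefSeq sequence of GRCm38.p6 from 250 bases before to 50 bases after the transcript start, read 5′ to 3′ on the strand of the gene, which is the plus strand for both. Capitals mark TGANTCA and TATAAA, the TATA box. TGANTCA, with any base as N, is a widened form of TGA(C/G)TCA, the consensus of the factor AP-1. AP-1 elements are known regulators of the human genes of both proteins.
Serpinb2, chr1:107511173-107511472: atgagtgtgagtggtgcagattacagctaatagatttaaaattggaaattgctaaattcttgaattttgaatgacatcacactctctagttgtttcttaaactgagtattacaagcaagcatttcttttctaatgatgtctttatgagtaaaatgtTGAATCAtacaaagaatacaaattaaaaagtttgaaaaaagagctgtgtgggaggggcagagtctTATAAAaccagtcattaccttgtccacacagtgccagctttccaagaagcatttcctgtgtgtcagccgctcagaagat
Plaur, chr7:24462233-24462532: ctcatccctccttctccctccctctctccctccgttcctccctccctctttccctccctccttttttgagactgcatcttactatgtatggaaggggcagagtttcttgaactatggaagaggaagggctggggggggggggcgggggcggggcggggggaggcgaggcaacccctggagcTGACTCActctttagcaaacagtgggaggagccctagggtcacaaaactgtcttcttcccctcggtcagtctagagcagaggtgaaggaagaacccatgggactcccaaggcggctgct
The Serpinb2 promoter held 35.3% G and C and 1 CpG, with TGAATCA at -94 to -88 and TATAAA at -29 to -24 from the start. TGAATCA matches the widened form only. The Plaur promoter held 59.3% G and C and 7 CpG, with TGACTCA at -69 to -63 and no TATAAA. The Serpine2 promoter was the richest of the 3 in CpG, with 77.7% G and C and 41 CpG, and held neither motif. It held 6 matches of GGGCGG, the GC box, with neighbours that share a base, against 3 in the Plaur promoter and 0 in that of Serpinb2. Over 27025 promoters of the same 300 bases, read on both strands, 7.93% held TGANTCA, 14.2% held TATAAA and 35.9% held GGGCGG, and the medians were 52.7% G and C and 7 CpG. A match is a match of letters and no measured binding site. Promoters were matched for 3 of the 5 genes, and those of Plau and Plat are named only.

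Serpinb2 (ENSMUSG00000062345, chromosome 1, 107500892 to 107525600 in GRCm38) had far more RNA at 6h than at the other times. Its level was 3.31, 5.06 and 3.96 CPM in the 0h libraries, 41.0, 37.3 and 36.8 CPM in the 6h libraries and 4.89, 4.09 and 4.04 CPM in the 24h libraries. Each 6h library lay above every library of the other times, while the 24h libraries lay within the span of the 0h libraries. The means were 4.11 ± 0.884 CPM at 0h, 38.4 ± 2.29 CPM at 6h and 4.34 ± 0.482 CPM at 24h (SD, n = 3 each), from 116 to 167 counts per library at 0h, 1098 to 1527 at 6h and 120 to 181 at 24h. The 6h level was 9.38-fold the 0h level (log2 fold change 3.23 ± 0.09, SE), and the 24h level was 0.114-fold the 6h level (log2 fold change -3.14 ± 0.09, SE). Among the 11633 tested genes whose mean reached 1 CPM, Serpinb2 ranked 3 from the top at 6h against 0h and 1 from the bottom at 24h against 6h. In a bulk library, fewer cells that express a gene and less of its RNA per cell cannot be told apart.

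**Figure D1:**
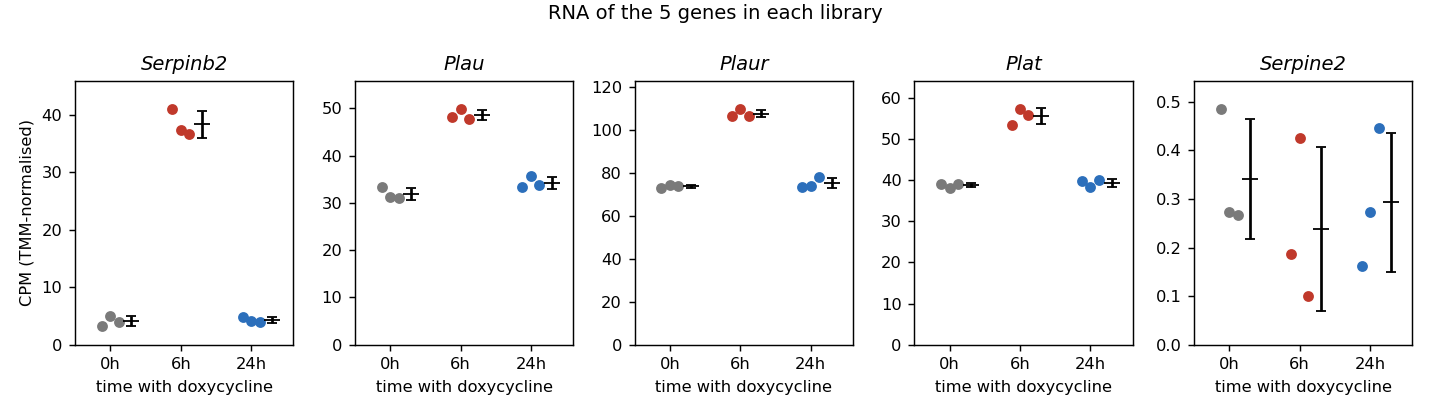
RNA level (CPM, TMM-normalised, linear axis from 0 in each panel) of the 5 genes in each of 9 libraries by time with doxycycline. Points are libraries and the black bars beside them are the mean ± SD of 3; the 6h points stand above those of 0h and 24h in Serpinb2, Plau, Plaur and Plat, and the 3 times overlap in Serpine2.

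Plau (ENSMUSG00000021822, chromosome 14, 20836662 to 20843388), the urokinase gene, had 33.4, 31.3 and 31.1 CPM at 0h, 48.0, 49.8 and 47.8 CPM at 6h and 33.3, 35.7 and 33.7 CPM at 24h. The 6h libraries lay above the others, and the 24h and 0h libraries overlapped. The 6h level was 1.52-fold the 0h level (log2 fold change 0.60 ± 0.04, SE). Plau was lower at 24h than at 6h, with a mean of 34.2 ± 1.30 CPM at 24h and 48.6 ± 1.07 CPM at 6h (SD, n = 3 each). The log2 fold change at 24h against 6h was -0.51 ± 0.04 (SE). At 24h against 0h its log2 fold change was 0.10 ± 0.04 (SE), with an unadjusted p of 0.0358 and an adjusted p of 0.211. Both come from the edgeR quasi-likelihood test, with Benjamini-Hochberg adjustment over all genes.

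Plaur (ENSMUSG00000046223, chromosome 7, 24460937 to 24475970), the urokinase receptor gene, had 73.2, 74.3 and 73.9 CPM at 0h, 106.9, 109.8 and 106.7 CPM at 6h and 73.8, 74.1 and 78.1 CPM at 24h. As for Plau, the 6h libraries were all higher than the rest and the other times overlapped. The 6h level was 1.46-fold the 0h level (log2 fold change 0.55 ± 0.03, SE). Plaur was lower at 24h than at 6h, with 75.3 ± 2.44 CPM at 24h against 107.8 ± 1.72 CPM at 6h (log2 fold change -0.52 ± 0.03, SE). At 24h against 0h the log2 fold change was 0.03 ± 0.03 (SE; edgeR adjusted p = 0.684).

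Plat (ENSMUSG00000031538, chromosome 8, 22757722 to 22782848), the gene of tissue plasminogen activator, had 39.1, 38.2 and 39.1 CPM at 0h, 53.3, 57.2 and 55.9 CPM at 6h and 39.6, 38.3 and 40.1 CPM at 24h. Again the 6h libraries did not overlap the others. The 6h level was 1.43-fold the 0h level (log2 fold change 0.52 ± 0.04, SE). Plat was lower at 24h than at 6h, with 39.3 ± 0.931 CPM at 24h against 55.4 ± 1.96 CPM at 6h (log2 fold change -0.49 ± 0.04, SE). Its log2 fold change at 24h against 0h was 0.02 ± 0.04 (SE; edgeR adjusted p = 0.825).

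Serpine2 (ENSMUSG00000026249, chromosome 1, 79794317 to 79858665), the protease nexin 1 gene, was at the edge of detection in this line. It had 17, 9 and 9 counts in the 0h libraries, 7, 14 and 3 counts in the 6h libraries and 6, 8 and 15 counts in the 24h libraries. The 3 times overlapped, with a mean level of 0.342 CPM at 0h, 0.238 CPM at 6h and 0.293 CPM at 24h. Set against 0h, the 24h level had a log2 fold change of -0.24 ± 0.45 (SE) (edgeR adjusted p = 0.839) and set against 6h one of 0.27 ± 0.48 (SE). With errors of this size, changes as large as those of Plau, Plaur and Plat were not detectable in Serpine2 at this depth.

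At 6h against 0h, 4 of the 5 genes had an adjusted p under 0.05, all with more RNA at 6h, in a contrast where 39% of 13785 genes passed (20.8% up, 18.2% down). Serpinb2 was selected on that contrast and the other 4 genes were listed with its results known, so nothing is read from this count. The 6h and 0h libraries did not overlap for the same 4 genes, nor for 47.9% of all genes. At 24h against 6h, which shares the 6h libraries with that contrast, 4 of 5 passed and were lower at 24h, against 36.1% of all genes (17.4% up, 18.8% down). For the same reason nothing is read from this count either. The 24h and 6h libraries did not overlap for these 4 genes and for 45.3% of all genes. At 24h against 0h, which shares the 0h libraries, 0 of 5 passed in edgeR, 1 had an unadjusted p under 0.05 (Plau) and 0 passed in DESeq2, against 7.04% of all genes in edgeR (4.17% up, 2.87% down). The 24h and 0h libraries overlapped for all 5 genes and were apart for 23.5% of all genes. Genes that passed upward at 6h and downward at 24h against 6h, without passing at 24h against 0h, made up 13.7% of those tested, or 1889 genes, with a median log2 fold change of 0.21 at 6h against 0h and -0.20 at 24h against 6h. Serpinb2, Plau, Plaur and Plat all had larger differences than these medians in both contrasts. The genes were chosen with the 6h results known, so nothing is read from this either.

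The 5 genes most like Serpinb2 in RNA profile were Pop1, Mybbp1a, Gnl2, Atp2a2 and Tagln2, with Pearson r of log2 CPM over the 9 libraries of 0.998, 0.997, 0.997, 0.996 and 0.995. Plaur ranked 47 among the 10687 genes compared (r = 0.988), Plat 122 (r = 0.981) and Plau 306 (r = 0.964). The libraries fall into 3 times, so r here mostly measures a 6h level that stands apart from 0h and 24h. The shape was shared and the size was not: the log2 fold change at 6h against 0h was 0.39 for Pop1, 0.37 for Mybbp1a, 0.24 for Gnl2, 0.23 for Atp2a2 and 0.38 for Tagln2, against 3.23 for Serpinb2.

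Of 23 other genes of plasminogen activation, 13 were tested, and at 6h against 0h 3 rose, 2 fell and 8 did not pass. Over all genes tested, 20.8% rose and 18.2% fell. The median log2 fold change of the 13 was 0.03 beside 0.0067 over all genes. The genes named from this list and the lists below are those with the smallest p, at most 4 per list and contrast. The lists were chosen with earlier results of these data known, so these p-values are not independent of that choice. Itgb1, the integrin beta 1 gene, rose with a log2 fold change of 0.48 ± 0.02 (SE; edgeR adjusted p = 4.6e-16), and Anxa2, the annexin A2 gene, with one of 0.07 ± 0.03 (SE; edgeR adjusted p = 0.027). Mrc2, which encodes the collagen receptor Endo180 that associates with the urokinase receptor, fell (-0.38 ± 0.03, SE; edgeR adjusted p = 6.1e-11), as did Lrp1, the endocytic receptor that clears protease and inhibitor complexes (-0.21 ± 0.05, SE; edgeR adjusted p = 0.00037). Plg, the plasminogen gene itself, had 0 counts in every library at 0h and 6h, and 1 library at 24h had 0.027 CPM.

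At 24h against 6h, 17.4% of all genes rose and 18.8% fell. Of these 13 genes 4 rose, 2 fell and 7 did not pass, with a median log2 fold change of 0.06 beside 0.0013 over all genes. Itgb1 fell (-0.48 ± 0.02, SE; edgeR adjusted p = 3.9e-16), as did Itgav, the integrin alpha V gene (-0.12 ± 0.03, SE; edgeR adjusted p = 0.00036). Mrc2 rose (0.24 ± 0.03, SE; edgeR adjusted p = 2.7e-07), as did Lrp1 (0.19 ± 0.05, SE; edgeR adjusted p = 0.0016). At 24h against 0h, 4.17% of all genes rose and 2.87% fell. Of the 13 genes 2 rose, 1 fell and 10 did not pass, with a median of 0.0020 beside -0.0017 over all genes. The 2 that rose were Anxa2 (0.13 ± 0.03, SE; edgeR adjusted p = 0.0011) and S100a10 (0.10 ± 0.03, SE; edgeR adjusted p = 0.010), which encode the parts of a cell-surface complex that binds plasminogen and tissue plasminogen activator, and Mrc2 was the 1 that fell (-0.13 ± 0.03, SE; edgeR adjusted p = 0.0049).

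**Figure D2:**
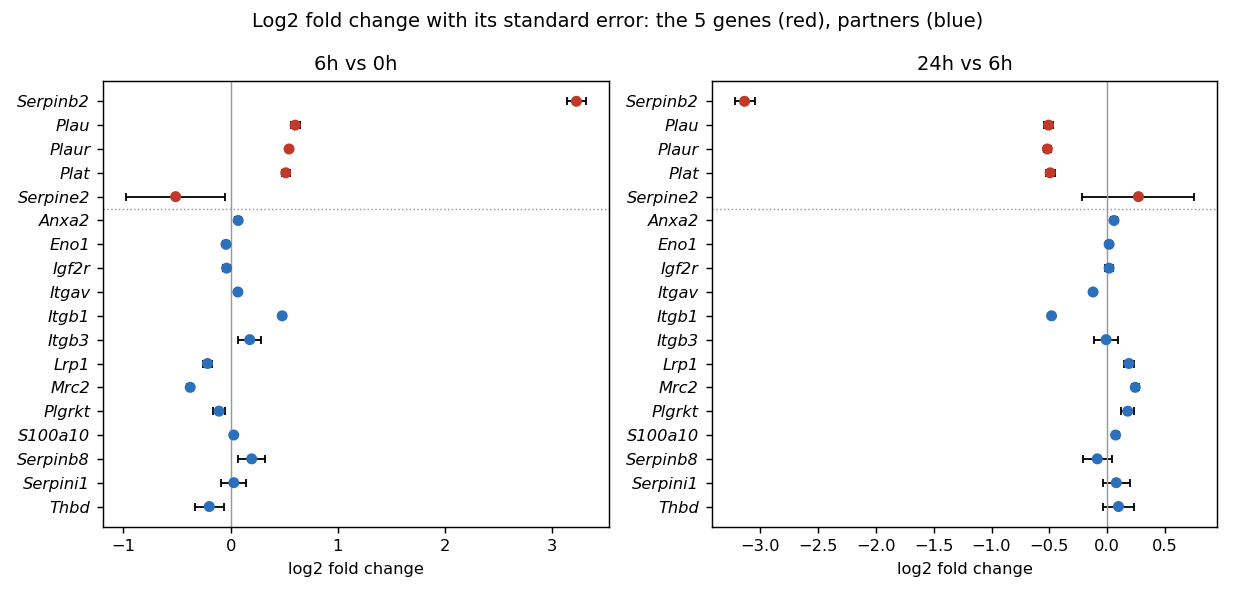
Log2 fold change with its standard error (horizontal bars) at 6h against 0h (left) and 24h against 6h (right), from the fit of all 9 libraries. Red points are the 5 genes and blue points are the 13 other plasminogen activation genes tested; Serpinb2 stands far from the rest in both panels.

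Serpinb2 belongs to a cluster of clade B serpin genes on chromosome 1, where 9 of 12 listed genes had 0 counts in all 9 libraries and only Serpinb8, besides Serpinb2, was tested. At 6h against 0h, 20.8% of all genes tested rose and 18.2% fell, with a median log2 fold change of 0.0067. Of 15 clade B serpins outside this cluster, 7 were tested, and 3 fell and 4 did not pass in this contrast (median log2 fold change -0.32). Among them were Serpinb9b (-0.39 ± 0.07, SE; edgeR adjusted p = 4.7e-05) and Serpinb9 (-0.32 ± 0.10, SE; edgeR adjusted p = 0.011), which inhibit granzymes or are close relatives of such inhibitors. At 24h against 6h, 4 of the 7 rose and 3 did not pass, with Serpinb9b at 0.51 ± 0.07 (SE; edgeR adjusted p = 8.4e-07), and at 24h against 0h 1 rose and 6 did not pass. Over all genes 17.4% rose and 18.8% fell at 24h against 6h, and 4.17% rose and 2.87% fell at 24h against 0h. Of 22 serpins of other clades, 3 were tested and 2 rose at 6h against 0h: Serpinf1, the gene of pigment epithelium-derived factor (0.25 ± 0.04, SE; edgeR adjusted p = 4.2e-05) and Serpinh1, the collagen chaperone gene (0.07 ± 0.02, SE; edgeR adjusted p = 0.015). At 24h against 6h these 2 fell, and at 24h against 0h 1 fell (Serpinf1, -0.17 ± 0.05, SE; edgeR adjusted p = 0.018).

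Of 26 genes of coagulation and its receptors, 12 were tested, and at 6h against 0h 4 rose, 3 fell and 5 did not pass. Their median log2 fold change was 0.02 beside 0.0067 over all genes, of which 20.8% rose and 18.2% fell. Tgm2, the transglutaminase gene, rose (0.51 ± 0.07, SE; edgeR adjusted p = 9.0e-07), as did Tfpi, the tissue factor pathway inhibitor gene (0.20 ± 0.03, SE; edgeR adjusted p = 2.4e-06). Thbs1, the thrombospondin 1 gene, fell (-0.22 ± 0.02, SE; edgeR adjusted p = 2.2e-08), as did F2r, the thrombin receptor gene (-0.16 ± 0.02, SE; edgeR adjusted p = 3.3e-06). At 24h against 6h 2 rose, 4 fell and 6 did not pass, where 17.4% of all genes rose and 18.8% fell. At 24h against 0h 2 fell and 10 did not pass, where 4.17% of all genes rose and 2.87% fell.

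The macroH2A2 regions are broad stretches that the authors called in each ChIP library. The number of reads behind them is unknown, and with 1 library per condition no difference between conditions could be tested. The libraries differed in how much was called: 201.1 Mb at 0h, 382.75 Mb at 6h, 363.09 Mb at 24h and 350.61 Mb at 5d, with 384.95 Mb under flavopiridol and 392.27 Mb and 338.21 Mb at 6h and 24h after GSK126. The 0h library, made without doxycycline, thus also has called regions. A gene was counted as covered when 50% or more of its bases lay in regions.

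At 0h none of the 5 genes was covered, against 3.36% of 18411 protein-coding genes of 3 kb or more. At 6h Serpinb2 and Plat were covered, 2 of 5, against 12.1% of genes. At 24h only Plat was covered, 1 of 5, against 9% of genes, and at 5d none, against 6.75%. Plat was also the 1 covered gene at 24h with flavopiridol (12.5% of genes) and at 6h after GSK126 (13.5% of genes). At 24h after GSK126, where 6.03% of genes were covered, and in the H2A.Z library, where 2.68% were, none of the 5 was. Serpinb2 at 6h, with 50.6%, lay just inside the limit, and Plaur under flavopiridol, with 49.6%, just outside it.

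**Figure D3:**
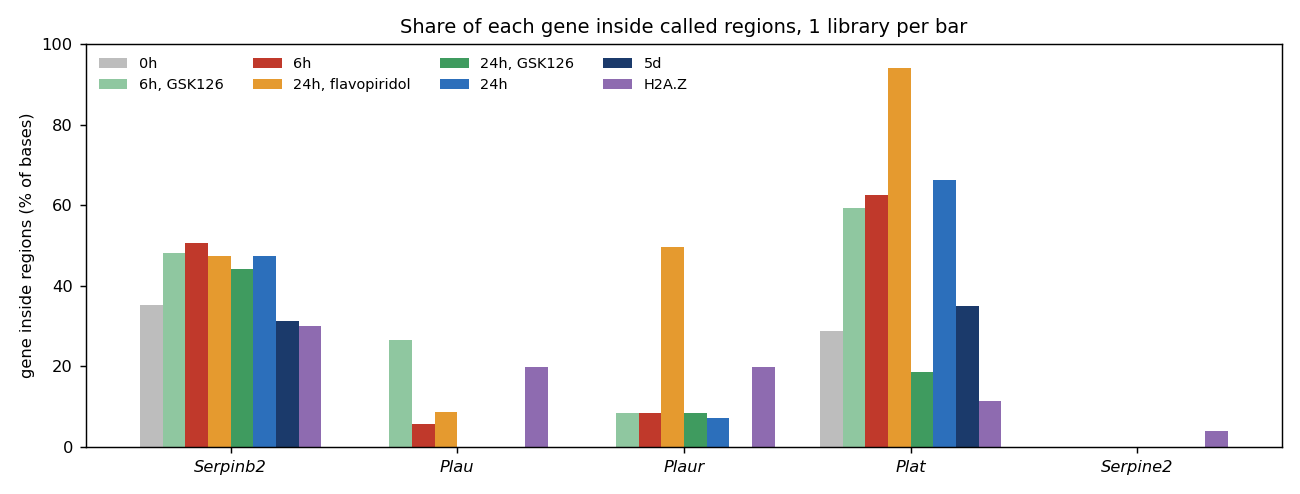
Share of the bases of each annotated gene (%, linear axis) inside called regions, 1 bar per ChIP library: macroH2A2-GFP in the induced line by time and treatment, and H2A.Z in wild-type primary fibroblasts. No error can be given for single libraries. Plat under flavopiridol has the tallest bar at 94.1%, and Serpine2 has no macroH2A2 bar.

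In Serpinb2 the regions lay mostly before the RefSeq transcript start used here, and at 6h and 24h they also reached past it. Regions held 35.2% of the annotated gene at 0h, 50.6% at 6h, 47.4% at 24h and 31.2% at 5d. Besides the RefSeq start at 107511423, whose promoter is printed above and which is used here, another is listed at 107511510. The annotated gene begins 10531 bases before the start used. Of these bases, regions held 82.7% at 0h, 100% at 6h and 24h and 73.2% at 5d. Of the 14178 bases from the start to the end of the gene, they held 0% at 0h, 14.0% at 6h, 8.31% at 24h and 0% at 5d.

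The 6h region of Serpinb2, at chromosome 1, 107492001 to 107513400, was 21400 bases wide and ran from -19422 to +1977 around the start. The 0h region ended at -1823, the 24h region at +1177 and the last 5d region at -1823 again. The 2 kb around the start, with the whole printed promoter, lay inside regions at 6h and 24h and outside them at 0h and 5d. The RNA level was high at 6h only among the 3 times with RNA libraries, and no RNA library was used for 5d. Whether the regions at the start and the RNA level are related was not tested. The end of a region depends on how regions were called: in the wider calls of the 5d library, with windows of 1000 bases and gaps of up to 4000 bases, the 2 kb around the start were covered.

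With flavopiridol 47.4% of Serpinb2 lay in regions at 24h, against 47.4% at 24h without it. After GSK126 the share was 48.2% at 6h, against 50.6% at 6h without it, and 44.2% at 24h, against 47.4% at 24h without it. The 2 kb around the start were inside regions in all 3 treated libraries. The H2A.Z region in primary fibroblasts, from -10422 to -3023, lay over the same stretch before the start and did not reach it. Within 100 kb beyond the gene on the higher-coordinate side, where further serpin genes lie, macroH2A2 regions held 0% at 0h, 24h and 5d and 1.8% at 6h. Of the other 11 listed serpins of this cluster, 0 had any macroH2A2 region at 0h, 6h, 24h or 5d. Serpinb8 had 3.70 CPM at 0h, and the other 10 had a mean under 0.1 CPM at 0h. Of all 6195 genes with a mean under 0.1 CPM, 26.2%, 35.9%, 40.5% and 40.5% had a region at these times. Over all 18411 genes the shares were 18.8%, 52.0%, 30.4% and 25.8%. Of the 11, 1, Serpinb8, had any under flavopiridol (18.9%) or at 6h after GSK126 (5.64%).

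**Figure D4:**
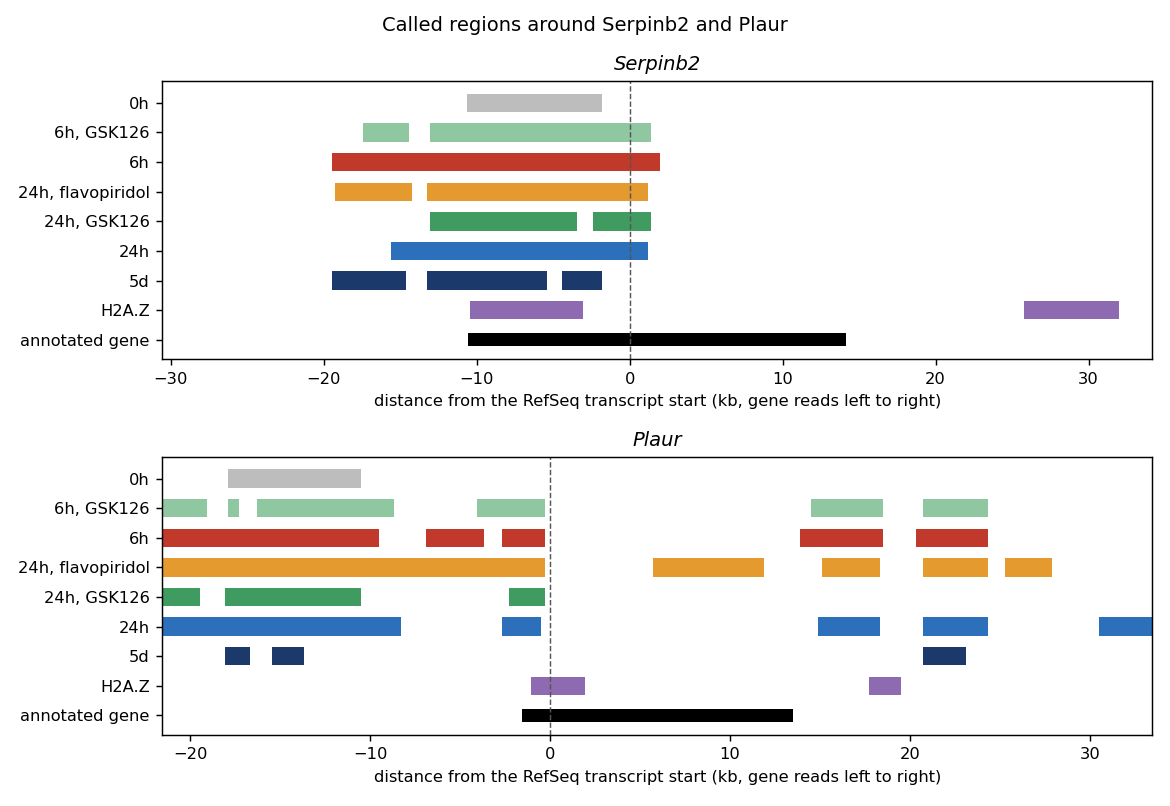
Called regions (coloured bars, 1 row per library) around Serpinb2 and Plaur, by distance in kb from the RefSeq transcript start (dashed line), with the annotated gene in black. At Serpinb2 the 6h region reaches from -19422 to +1977 bases and those of 0h and 5d end at -1823; at Plaur the last macroH2A2 region before the start ends at -283 or earlier, and the H2A.Z region spans the start.

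In Plaur the 6h and 24h regions ended shortly before the printed promoter. Regions held 0% of the gene at 0h, 8.41% at 6h, 7.08% at 24h and 0% at 5d. The 6h region nearest the start, at chromosome 7, 24459801 to 24462200, ended at -283, and that of 24h ended at -483. The promoter printed above, which begins 250 bases before the start, was thus outside macroH2A2 regions at every time, while the H2A.Z region of primary fibroblasts, from -1082 to +1917, held all 2 kb around the start. From the start to the end of the gene, 13488 bases, regions held 0% in every macroH2A2 library except that with flavopiridol, where they held 46.0%. Under flavopiridol a region of 6200 bases lay from +5718 to +11917, and the share of the whole gene was 49.6%, against 7.08% at 24h without it. After GSK126 the share was 8.41% at 6h, against 8.41% at 6h without it, and 8.41% at 24h, against 7.08% at 24h without it.

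Plau lay in a gap between broad regions. Regions held 0% of the gene at 0h, 5.77% at 6h, 0% at 24h and 0% at 5d, while the 100 kb on its higher-coordinate side were 49.0% inside regions at 0h and 85.6% at 6h. At 24h one region ended at 20835800, before the gene, and the next began at 20846201, after it. Plau is 1 of 8310 genes whose mean at 0h reached 10 CPM. Of these, 8.13% had any region at 0h, 15.7% at 24h and 9.19% at 5d, so that most had none at these times. The share was 8.74% with flavopiridol at 24h, against 0% at 24h without it, and 26.6% after GSK126 at 6h, against 5.77% at 6h without it. After GSK126 at 24h it was 0%, as at 24h without it. Over the 8310 genes the median share at 6h was 14.3% after GSK126 and 8.72% without it. An H2A.Z region at 20835801 to 20838000 lay over the lower-coordinate end of the gene and held 19.9% of it.

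Plat had the largest share in macroH2A2 regions of the 5 genes in every library except 0h and 24h after GSK126, where that of Serpinb2 was larger. Regions held 28.7% of it at 0h, 62.6% at 6h, 66.3% at 24h and 35.0% at 5d. Plat belongs to the 8310 genes whose mean at 0h reached 10 CPM, of which 0.301% were covered at 0h, 14.6% at 6h, 0.927% at 24h and 0.433% at 5d. Within these genes its share stood at the 99.1 percentile at 0h, the 91.4 percentile at 6h, the 99.5 percentile at 24h and the 99.1 percentile at 5d. Its share was thus high for its class before induction too, in the library without doxycycline. The surroundings of Plat were in regions as well. The 100 kb on its lower-coordinate and higher-coordinate sides were 45.8% and 28.8% inside regions at 0h, and 79.0% and 68.0% at 6h. They were 49.4% and 60.6% inside regions at 24h, and 49.0% and 53.2% at 5d.

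With flavopiridol 94.1% of Plat lay in regions at 24h, against 66.3% at 24h without it, and the class share was 7.0% with it, against 0.927% without it. After GSK126 the share of Plat was 59.4% at 6h, against 62.6% at 6h without it, and 18.5% at 24h, against 66.3% at 24h without it. The class share after GSK126 was 19.5% at 6h, against 14.6% without it, and 0.65% at 24h, against 0.927% without it. At 24h after GSK126 Plat stood at the 96.5 percentile of its class. In the 24h library after GSK126, the longest region wholly inside the gene lay at 22762201 to 22766800, against 22757801 to 22769600 in the 24h library without it. An H2A.Z region at 22757001 to 22760600 lay over the lower-coordinate end of the gene.

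**Figure D5:**
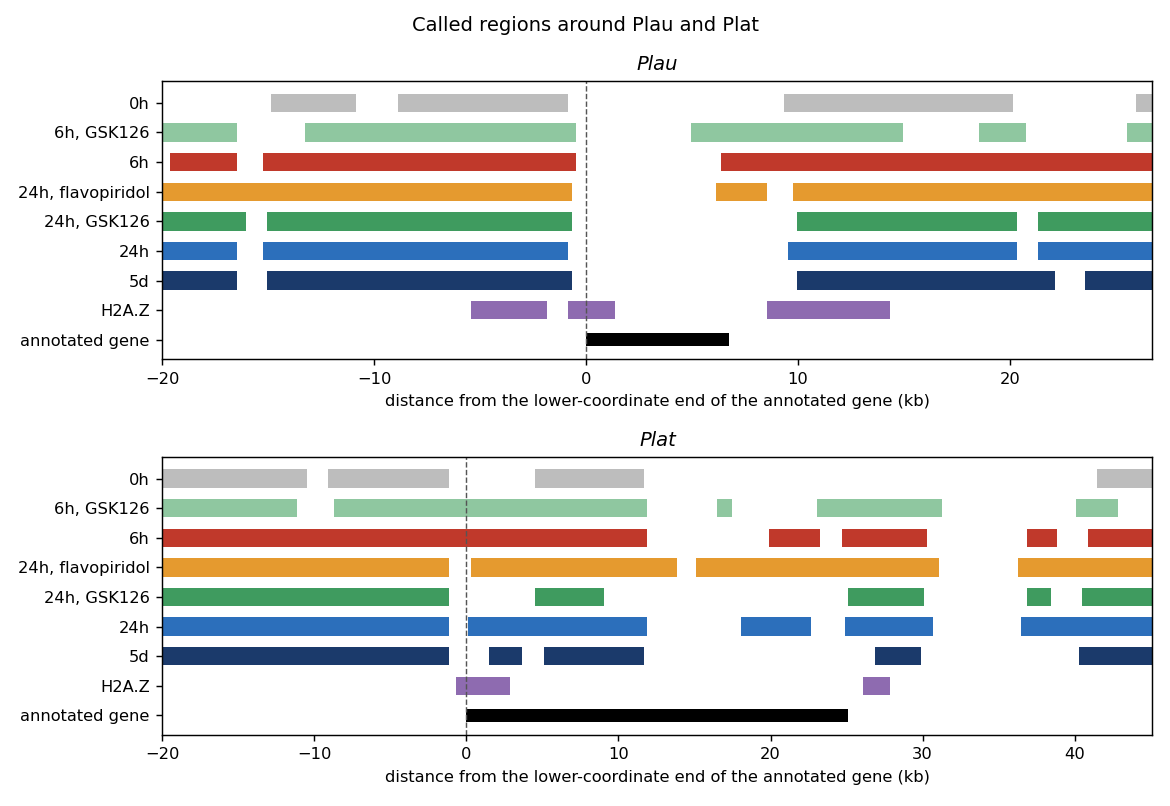
Called regions (coloured bars, 1 row per library) around Plau and Plat, by distance in kb from the lower-coordinate end of each annotated gene (dashed line), with the gene in black. The body of Plau lies in a gap between regions at 0h, 24h and 5d, while Plat has regions inside the gene in every library.

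Serpine2 had no macroH2A2 region in the gene or within 100 kb on either side in any of the 7 libraries, and the wider 5d calls had none there either. The H2A.Z library had a region inside the gene, which held 4.04% of it, and none within 1 kb of the start.

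Genes of the set with like RNA profiles thus had unlike regions. At 6h, when Plau, Plaur and Plat were at 1.52-fold, 1.46-fold and 1.43-fold their 0h levels, regions held 5.77% of Plau, 8.41% of Plaur and 62.6% of Plat. Among genes whose mean at 0h reached 10 CPM, these shares stood at the 46.1, 49.5 and 91.4 percentiles at 6h. The median of that class was 8.72%, so the shares of Plau and Plaur were ordinary for it.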

How the data were processed

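The RNA files deposited by the authors hold raw read counts for each gene, from directional poly(A) libraries aligned with STAR 2.5.2b, per the submitters' processing notes. The ChIP libraries were aligned with Bowtie 1.1.2 and regions called with SICER 1.1, per the same notes. The deposited region lists hold a whole-number score per region, whose scale is not given in the sources used here, and a running number that was not used. Calls made with windows of 200 bases and gaps of up to 800 bases were used. Input was not used here.

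The strand column with 96.6% or more of stranded counts was taken. Reads unmapped, multiply mapped or in no single gene were 21.2 to 23.1% and were left out. One fit in R 4.3.3 held all 9 libraries (edgeR 4.0.16, TMM scaling, filterByExpr, quasi-likelihood test), and 13785 genes were tested, with Benjamini-Hochberg adjustment and a threshold of 0.05. DESeq2 1.42.0 was an alternative. The fit was tested on simulated data. Gene positions and promoters came from RefSeq GRCm38.p6, symbols matched 48058 of 48440 IDs, and overlaps were computed with pandas 2.3.3. Counts on the strand opposite to the 5 genes were 0 to 4 per library. The members and lists were chosen with earlier results of these data known. Named list genes passed the test and had a mean of at least 1 CPM, at most the 4 with the smallest p per list and contrast. CPM is not per length, so levels are compared within a gene only. A gene of the lists is not reported here and was left out of their counts and medians.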

Additional observations from a re-analysis of the deposited data

Results flagged for a closer look

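The change of Plau, Plaur and Plat relative to 0h differed between 24h and 6h. The difference, change at 24h minus change at 6h, was -0.51 for Plau, -0.52 for Plaur and -0.49 for Plat on the log2 scale. It is the 24h against 6h contrast of the report. These differences are not independent of how the set was chosen, so no p-values are given. Serpinb2 was selected on 6h against 0h, which uses the same 6h libraries, and the other genes were listed with those results known. Serpinb2 itself, selected for its 6h level, had a difference of -3.14. All 3 libraries at 24h lay below all 3 at 6h for each gene.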

How the results depend on the processing

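Across 15 alternative fits the counts of the 5 genes that passed were 4 at 6h against 0h, 0 at 24h against 0h and 4 at 24h against 6h in each fit. With the replicate block the genes called over the whole table were 5435, 1027 and 5036 in these contrasts. Without it they were 5377, 971 and 4980, and no call among the 5 genes changed. Same-numbered libraries did not deviate together from their group means (r -0.0183 to 0.0390), and the main fit did not pair them. This check cannot exclude that same-numbered libraries were prepared together. Leaving out 1 library moved the genes called at 24h against 0h to between 553 (without 0h replicate 2) and 1148. The count was 647 when 0h replicate 1 was left out, 631 when 24h replicate 2 was and 629 when 24h replicate 3 was. The 24h against 0h log2 fold change of Serpinb2 then ranged from -0.045 to 0.27, with -0.045 without 0h replicate 1 and -0.012 without 24h replicate 1. That of Serpine2 ranged from -0.69 to 0.10, with 0.10 without 0h replicate 1 and 0.081 without 24h replicate 1, and its 24h against 6h value from -0.18 to 0.95, with -0.041 without 6h replicate 3 and -0.18 without 24h replicate 3. Serpine2 has no value in the fit of 6 libraries. In DESeq2 it has no adjusted p, with a log2 fold change of -0.23 at 24h against 0h and 0.29 at 24h against 6h. The cause of these shifts was not tested. Genes covered, of 5, with a limit of 20% in place of 50%, were 2 at 0h, 2 at 24h, 2 at 5d, 3 with flavopiridol, 3 at 6h after GSK126, 1 at 24h after GSK126 and 1 for H2A.Z, and with a limit of 80% they were 0 at 6h, 0 at 24h and 0 at 6h after GSK126. With only regions at or above the median score they were 1 at 6h and 0 at 24h. In the 2 kb around the start, known for 3 genes, they were 1 at 6h, 1 at 24h after GSK126 and 1 for H2A.Z. For the limits of 20% and 80%, the median score and the start windows, the share over all genes was not computed. Nothing is therefore read from those counts. With the wider 5d calls and the limit of 50% 1 of the 5 was covered, against 14.1% of genes. Read depth behind the regions is unknown, and the low counts of Serpine2 limit its comparisons.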

Other observations

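Clade B serpins with little or no RNA in this line had different shares in macroH2A2 regions at different locations. Of the 8 clade B serpins outside the chromosome 1 cluster with a mean under 0.1 CPM at 0h, 5 had 50% or more of the gene in regions at 24h and 5 at 5d, with a median share of 57.2% at 24h and 54.0% at 5d. Over all 6195 genes of that RNA level, 15.5% were covered to this extent at 24h and 13.2% at 5d. Of the 10 serpins of that RNA level in the chromosome 1 cluster that holds Serpinb2, 0 had any region at either time, and 40.5% of all genes of that level had one at 24h and at 5d, so that most such genes had none. Neighbouring genes share regions and are not independent, these groups were set side by side after their values were seen, and no test was made.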
